A study of Mus musculus with 17 samples.

Results

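The genes described here are 10 that write, copy, erase or guard DNA methylation: the methyltransferases Dnmt1, Dnmt3a and Dnmt3b, the cofactor Dnmt3l, the dioxygenases Tet1, Tet2 and Tet3, the adaptor Uhrf1, and the imprint guardians Dppa3 and Zfp57. They were taken by name from the 24491 gene symbols counted in every library, and all 10 were found. RNA sequencing was carried out on wild type CD1 mice in 6 groups, 3 of them oocytes arrested at the second meiotic metaphase (about 10 oocytes per library) and 3 of them hippocampus. Oocytes came from females of 4 weeks (young, n = 2 libraries), of 48 weeks (aged, n = 2), and of 48 weeks that had been injected intraperitoneally with rapamycin, an inhibitor of the mTOR kinase, from week 8 onward over 40 weeks, at a dose of 2 mg/kg (n = 3). Before collection the young females received 5 IU, and both groups of 48-week females 10 IU, of each of the hormones PMSG and hCG, so hormone dose and age cannot be told apart. Hippocampus came from adult female offspring of 40 to 44 weeks, born to young mothers (n = 4), aged mothers (n = 3) or rapamycin-treated aged mothers (n = 3). The offspring were labelled by the age and treatment of the mother, and the age of those mothers in weeks is not used here. Whether the libraries of a group are from separate animals is not stated in the labels. P-values are therefore about the spread among libraries, part of which could be technical.

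DNA methylation is copied after replication by DNMT1, which UHRF1 brings to half-methylated sites. New methylation is set by DNMT3A and DNMT3B, and in growing oocytes DNMT3A works with DNMT3L, a relative without catalytic activity, to lay down the maternal imprints. TET enzymes oxidise methylcytosine as the start of demethylation, and TET3 is known as the form stored in the egg. DPPA3 protects the maternal genome of the zygote from this oxidation and restrains UHRF1, and ZFP57 binds methylated imprint control regions and recruits TRIM28 to keep them methylated.

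On GRCm38 the annotation (GENCODE M21) places Dnmt1 on the minus strand at chr9:20907209-20959888 and Uhrf1 on the plus strand at chr17:56303321-56323486. Dnmt3a lies at chr12:3806007-3914443, Dnmt3b at chr2:153649450-153687730 and Dnmt3l at chr10:78041947-78063622, all on the plus strand. Tet1 (chr10:62804570-62908996), Tet2 (chr3:133463679-133545139) and Tet3 (chr6:83362373-83459084) are all on the minus strand. Dppa3 (chr6:122626410-122630272) and Zfp57 (chr17:37001163-37010635) are on the plus strand. All 10 are protein-coding. Exonic words of 75 bases were unique to the gene for 93.8% of Dnmt3b (the rest shared with its paralog Dnmt3c), 91% of Uhrf1 (shared with Gm5648) and 96.2% of Dppa3 (shared with Dppa3-ps), and for at least 99.7% of the other 7. How reads from those shared words were counted is not given in the sources used here. Exons of Dnmt3a overlap the antisense gene Dnmt3aos over 0.799% of their length and those of Dnmt3l overlap Aire over 2.242%, and reads there cannot be told apart without the strand setting of the counting.

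RefSeq promoter windows (GRCm38.p6, 250 bases before to 50 after a transcript start) were matched for 9 of the 10 genes, in 18 windows. Dnmt1 and Uhrf1, the pair that copies methylation, each had a window with the E2F letters TTTCGCGC, searched on both strands. They lay at -219 and -185 bases from the transcript starts at 20952623 (Dnmt1) and 56304313 (Uhrf1). The other Dnmt1 windows (starts at 20952979 and 20959888) and the other Uhrf1 window (start at 56303337) held none of these letters. Both matches lie downstream of those other starts, and which start was used in these libraries was not tested. Of 32851 windows of the same length, 0.323% held these letters. The 30 bases around each match are shown because these genes were the only ones of the 9 with these letters, and no factor was measured. Both were low in the oocyte library that stood apart, described below, and so were Dnmt3l, Tet2, Tet3 and Zfp57, whose windows held none of these letters. A link between these letters and the levels was not tested. Capitals mark the E2F letters, on the reverse strand in Dnmt1 (chr9:20952824-20952853, minus strand) and on the forward strand in Uhrf1 (chr17:56304117-56304146, plus strand).
Dnmt1: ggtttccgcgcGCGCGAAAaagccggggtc
Uhrf1: cccgagtcgggTTTCGCGCgcccaggcgtc

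The 250 bases before the transcript start are shown for Tet2 and Tet3, the TET genes that divided between the tissues in opposite directions, with each CG in capitals. The Tet2 stretch (chr3:133544391-133544640, minus strand) held 51 CG and the Tet3 stretch (chr6:83441679-83441928, minus strand) held 17. Over the full windows Tet2 held 57, more than 99.8% of all windows, Tet3 held 22 and Tet1 held 17, while the median window held 7.
Tet2: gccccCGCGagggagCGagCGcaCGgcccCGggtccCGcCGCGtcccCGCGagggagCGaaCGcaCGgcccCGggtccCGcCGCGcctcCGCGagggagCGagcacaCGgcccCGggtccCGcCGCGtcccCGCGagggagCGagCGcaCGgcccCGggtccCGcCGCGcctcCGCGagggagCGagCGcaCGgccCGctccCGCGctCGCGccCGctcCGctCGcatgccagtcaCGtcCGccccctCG
Tet3: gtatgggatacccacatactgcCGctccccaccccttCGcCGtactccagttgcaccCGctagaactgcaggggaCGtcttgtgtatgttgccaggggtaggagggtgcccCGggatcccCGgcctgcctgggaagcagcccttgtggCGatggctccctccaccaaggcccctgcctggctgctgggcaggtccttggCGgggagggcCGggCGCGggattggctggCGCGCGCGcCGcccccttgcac

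Zfp57 was the gene whose libraries separated by maternal age in both tissues. Such a separation was common in oocytes (61.3% of all genes) and rarer in hippocampus (5.45%). Zfp57 did not pass the adjusted p threshold of 0.05 in oocytes (edgeR adjusted p = 0.782) or in hippocampus (edgeR adjusted p = 0.990). Its first promoter stretch (chr17:37000913-37001162, plus strand) is shown with the TATA letters TATAAA, here on the reverse strand at -189, in capitals. These letters occurred in 13.6% of all windows. Of the other letters searched on both strands, CACGTG (7.15% of all windows) was found once each in Dnmt3a and Dnmt3l windows, and TGACGTCA (1.79%) and TAATTG were found in no window of these genes. The Zfp57 window held 6 CG, fewer than the median.
Zfp57: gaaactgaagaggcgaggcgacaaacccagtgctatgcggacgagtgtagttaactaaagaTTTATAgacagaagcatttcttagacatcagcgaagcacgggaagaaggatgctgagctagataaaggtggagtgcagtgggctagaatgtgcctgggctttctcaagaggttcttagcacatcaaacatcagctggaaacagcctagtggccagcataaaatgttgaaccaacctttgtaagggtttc

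Oocyte libraries held 3912163 to 8334873 counts and hippocampus libraries 16434398 to 20220617, and 3 counts corresponded to 0.360 to 0.767 CPM in oocytes and 0.148 to 0.183 CPM in hippocampus (CPM, counts scaled for library size after TMM normalisation). The labelled tissues were checked against their markers. All 16 oocyte markers were detected in each oocyte group, and their summed level was 32053 to 36849 CPM in young and aged oocytes. In hippocampus they summed to at most 2.84 CPM, while 8 neuronal markers summed to 10988 to 13266 CPM. The oocyte library rapamycin 1 stood apart, with a sum of oocyte markers of 3589 CPM against 30205 CPM in the highest rapamycin library. Among 6330 oocyte genes with a mean of at least 10 CPM, 39.2% were lower and 29.2% higher in rapamycin 1 than in all the other 6 libraries. The main oocyte results are therefore also given without it.

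Most of these genes took a far larger share of the counts in oocytes than in hippocampus. In a fit of all 17 libraries with edgeR, 8 of 10 genes were higher in oocytes and passed the test, Tet2 was lower and passed, and Tet1 did not pass. Without rapamycin 1 the same 9 genes passed in the same directions (90.8% of all genes passed). Without rapamycin 2 Tet1 passed too, as lower in oocytes (-0.64 ± 0.27, SE; edgeR adjusted p = 0.0350, and 0.0350 to 0.394 over the alternatives), although the tissues overlapped. As background, 88.8% of 16672 genes passed in this comparison, 32.9% as higher and 55.8% as lower, and the median difference over all genes was -1.43 on the log2 scale against 5.66 for the 10 genes (also 5.66 with Dppa3 at its bound). Tissue and library kit cannot be told apart here, because oocyte cDNA was amplified by template switching and hippocampus RNA was not.

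Dppa3 had 0 counts in all 10 hippocampus libraries, of 181277070 counts in total, and 2980 ± 1175 CPM (SD, n = 7) in oocytes on the scale of the joint fit. Taking 3 counts over the hippocampus group as the floor, it was at least 221713-fold higher in oocytes. Uhrf1 differed most of the genes found in both tissues, by 9.47 ± 0.53 (log2, SE; edgeR adjusted p = 1.78e-11). It was at 27.9 to 718 CPM in oocytes and 0.502 to 2.17 CPM in hippocampus. Zfp57 followed at 7.98 ± 0.30 (edgeR adjusted p = 1.76e-13), with 221 to 892 CPM in oocytes and 2.39 to 8.16 CPM in hippocampus. The tissues did not overlap for these 3 genes, nor for 6 of the other 7 (all but Tet1), against 69.9% of all genes. The CPM ranges and overlaps of the tissues use TMM factors from each tissue alone, whereas the log2 differences are from the joint fit. The sizes of the 2 therefore need not match.

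Among the methyltransferases the difference was 6.58 ± 0.29 for Dnmt3l, 6.0 ± 0.24 for Dnmt3b, 4.62 ± 0.34 for Dnmt1 and 3.53 ± 0.18 for Dnmt3a (log2, SE). Each passed, with edgeR adjusted p of at most 6.69e-10. Dnmt3l and Dnmt3b were near the floor in hippocampus, with 7 to 22 and 7 to 17 counts per library, whereas Dnmt1 and Dnmt3a, known for their continued expression in neurons, had 577 to 1064 and 587 to 1637.

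The TET genes divided by tissue. Tet3 was higher in oocytes by 5.33 ± 0.30 (log2, SE; edgeR adjusted p = 1.88e-11), at 331 to 1679 CPM against 28.6 to 69.1 CPM. Tet2 was lower in oocytes by 2.03 ± 0.33 (value -2.03; edgeR adjusted p = 1.80e-05), at 0.536 to 4.21 CPM against 11.3 to 35.6 CPM, and the 2 tissues did not overlap. Tet1 overlapped between them, at 0.897 to 9.63 CPM in oocytes and 4.89 to 13.6 CPM in hippocampus (edgeR adjusted p = 0.161).

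To set genes beside each other, counts were divided by merged exon length and rescaled to the same total as CPM (a per-length level). In every oocyte library Dppa3 ranked first of the 10, with a median per-length level of 6729. The medians that followed were 583 for Zfp57, 321 for Uhrf1, 292 for Dnmt1, 276 for Tet3, 81.6 for Dnmt3a, 46.1 for Dnmt3l, 13.5 for Dnmt3b, 0.976 for Tet1 and 0.736 for Tet2. Ranges of neighbours in this order overlapped, except that the lowest Dppa3 level lay above the highest of Zfp57 and the lowest Dnmt3b level (9.22) above the highest of Tet1 (2.12). Without rapamycin 1 the order was unchanged and 3 more neighbours separated. The lowest Tet3 level (196) then lay above the highest of Dnmt3a (115), the lowest of Dnmt3a (65.0) above the highest of Dnmt3l (60.9), and the lowest of Dnmt3l (32.6) above the highest of Dnmt3b (29.2). In every hippocampus library Dnmt1 ranked first, with a median per-length level of 23.6, ahead of Dnmt3a at 12.2 and Tet3 at 11.4. Below them came Tet2 at 4.87, Zfp57 at 3.98, Tet1 at 1.95, Uhrf1 at 0.856, Dnmt3l at 0.734 and Dnmt3b at 0.470, with overlapping ranges between all neighbours.

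**Figure D1:**
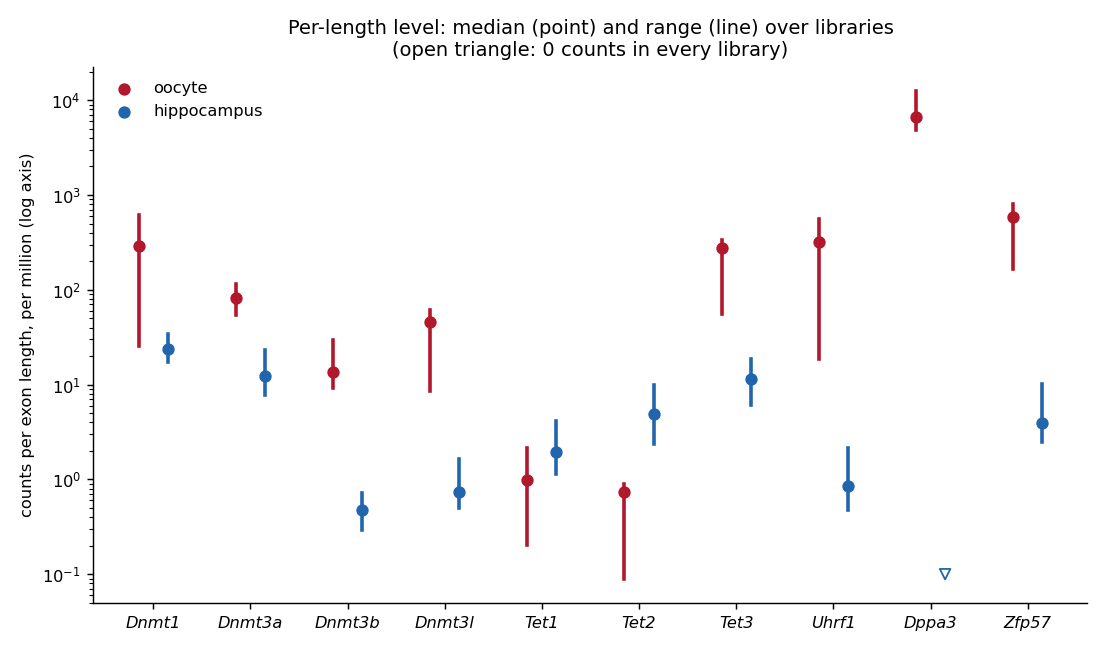
Per-length level (counts per merged exon length, rescaled to the same total as CPM, log axis) of the 10 genes in 7 oocyte libraries (red) and 10 hippocampus libraries (blue), as median and range, with Dppa3 in hippocampus at 0 counts drawn as an open triangle. Only Tet2 is wholly higher in hippocampus, and Tet1 overlaps.

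Within the TET family, Tet3 made up 98.8% of the summed per-length level in young oocytes, 99.7% in aged and 99.2% in rapamycin oocytes. In hippocampus its share was 60.9% ± 1.52 (SD, n = 4) with young mothers, 63.4% ± 1.07 (n = 3) with aged mothers and 60.1% ± 3.68 (n = 3) with rapamycin-treated mothers. The aged against young difference was 0.857 percentage points in oocytes (exact permutation p = 0.333, two-sided, the smallest that 2 against 2 libraries allow). It was 2.46 points in hippocampus (exact permutation p = 0.0857, smallest possible 0.0286). Within the DNMT3 family, the Dnmt3l share was 42.5% in young, 29.6% in aged and 19.5% ± 7.42 (SD, n = 3) in rapamycin oocytes, and Dnmt3a took most of the rest. The rapamycin libraries were at 11.5% (rapamycin 1), 20.8% and 26.1%, all below both aged libraries. By counts, without division by length, the Dnmt3l share was 13.0% in young, 8.11% in aged and 4.72% in rapamycin oocytes. The size of the share thus depends on the merged exon length, 16642 bases for Dnmt3a and 2988 for Dnmt3l. That length joins the exons of all annotated transcripts and can exceed the transcript present.

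Aged oocytes were compared with young oocytes to ask whether maternal age was accompanied by different stores of these transcripts. With all 7 libraries in the fit, none of the 10 genes passed (edgeR, adjusted p threshold 0.05), while 27 of 10083 genes did (0.268%). At an unadjusted p under 0.05 there were 2 of the 10, Tet1 and Dppa3, beside 1162 of all 10083 genes. DESeq2, which called 2.86% of genes, called Tet1. Without rapamycin 1 the estimated biological variation between libraries dropped from 49.5% to 28.1%, and 3 of 10 genes passed, Dnmt1 as higher and Tet1 and Dppa3 as lower with age. In that fit 11.4% of all genes passed, 6.27% as higher and 5.16% as lower. The same 3 passed in a fit of only the 4 young and aged libraries, in which 12.5% of genes passed. Young and aged libraries did not overlap for 9 of the 10 genes, against 61.3% of all genes, so this count is to be read beside a high background.

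Tet1 differed most. It had 35 and 83 counts in the young libraries (7.61 and 9.63 CPM) and 4 counts in each aged library (1.08 and 0.897 CPM), and the aged libraries were the lowest of the 7. The log2 difference was -3.11 ± 0.78 (SE; edgeR adjusted p = 0.241 with all libraries, and 0.0149 to 0.999 over the alternatives), and -3.12 ± 0.60 (edgeR adjusted p = 0.0154) without rapamycin 1. An aged count of 4 lies just above the floor of 3, and Tet1 was among the lowest of the 10 genes in oocytes. Rapamycin oocytes had 2.41, 8.31 and 4.21 CPM, all above both aged libraries.

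Dppa3 was at 3453 and 2518 CPM in young oocytes and at 1301 and 1654 CPM in aged oocytes. Both aged libraries lay below both young ones, with a log2 difference of -1.02 ± 0.41 (SE; edgeR adjusted p = 0.412 with all libraries, and 0.0215 to 1.00 over the alternatives), or -1.02 ± 0.22 (edgeR adjusted p = 0.0215) without rapamycin 1. Dppa3 had at least 4838 counts in every oocyte library, so counting error is small beside the spread. Its partner guardian Zfp57 was also lower, at 821 and 892 CPM in young and 608 and 636 CPM in aged oocytes, and did not pass in either fit (edgeR adjusted p = 0.782 and 0.186).

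The copying pair pointed the other way. Dnmt1 was at 538 and 502 CPM in young oocytes and 1375 and 794 CPM in aged oocytes, without overlap, although the aged libraries differed widely from each other. Its log2 difference was 1.06 ± 0.88 (SE; edgeR adjusted p = 0.668 with all libraries, and 0.0318 to 1.00 over the alternatives), or 1.05 ± 0.25 (edgeR adjusted p = 0.0318) without rapamycin 1. Uhrf1 was at 365 and 402 CPM in young and 718 and 444 CPM in aged oocytes, and did not pass (edgeR adjusted p = 0.848, and 0.193 without rapamycin 1). In both genes aged 1 was the highest of the 7 libraries.

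The de novo genes and the other TET genes did not pass in either fit. Dnmt3a was at 336 and 318 CPM in young and 451 and 440 CPM in aged oocytes, a log2 difference of 0.44 ± 0.36 (SE). Dnmt3b was at 17.2 and 20.2 CPM in young and 45.2 and 27.8 CPM in aged oocytes, a difference of 0.96 ± 0.50. For both genes the aged libraries lay above the young ones. Dnmt3l was at 56.3 and 46.9 CPM in young and 45.5 and 39.7 CPM in aged oocytes. Tet3 was at 1011 and 1191 CPM in young and 1679 and 1431 CPM in aged oocytes, and Tet2 was at 3.70 and 3.60 against 3.77 and 3.59 CPM, the only one of the 10 whose libraries overlapped.

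**Figure D2:**
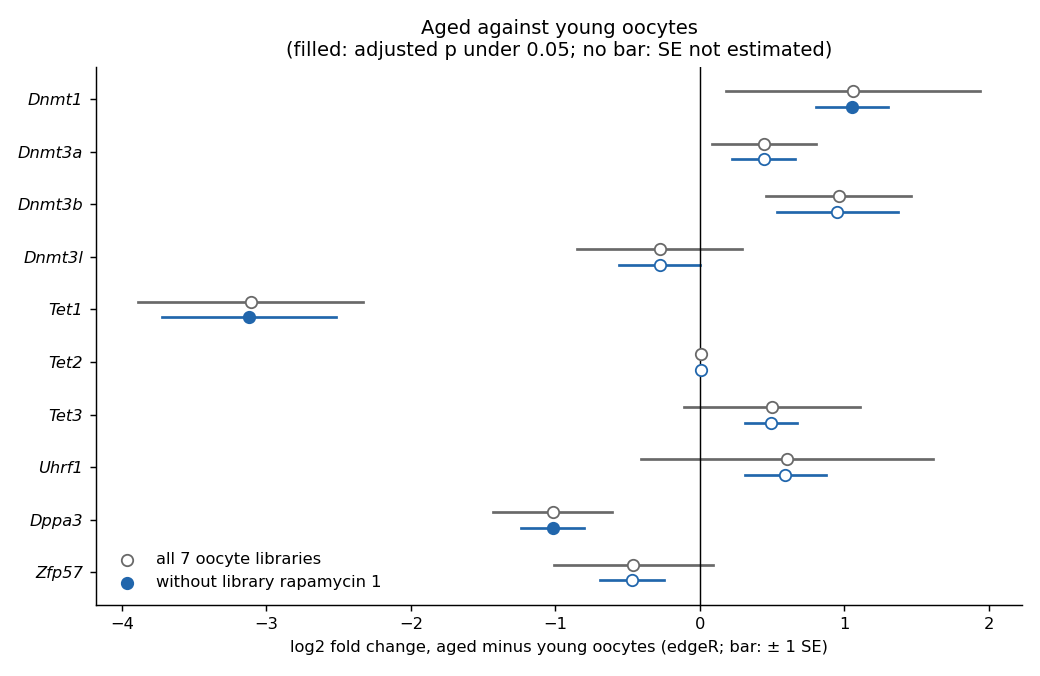
Log2 fold change of aged against young oocytes (horizontal axis, edgeR, bars of 1 SE either side) for each gene, with all 7 libraries (grey) and without rapamycin 1 (blue), filled where adjusted p was under 0.05. Tet2, near 0, has no bar where its SE was left out (edgeR unadjusted p = 0.990 with all 7 libraries). The values hardly move and the bars shorten without that library, and only Dnmt1, Tet1 and Dppa3 are filled.

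Other measures moved with the oocyte groups. The mean level of 74 ribosomal protein genes (log2, centred on the 7 libraries) was -1.04 and -0.38 in aged, 0.11 and -0.09 in young, and 1.04, 0.16 and 0.19 in rapamycin oocytes. Genes with a merged exon length below 2000 bases had a median log2 difference of -0.44 between aged and young (1223 genes), against 0.05 for lengths of 2000 to below 7000 and 0.04 above, and Dppa3, at 892 bases, is the only one of the 10 in the short class. Summed cumulus and granulosa markers were at 92.9 to 103 CPM in young, 57.0 to 62.6 CPM in aged and 56.1 to 180 CPM in rapamycin oocytes, where 180 CPM was rapamycin 1 and the other two were at 56.1 and 62.0 CPM. Of these 18 markers 15 were detected in young, 9 in aged and 17 in rapamycin oocytes. The part of these in the differences was not tested. In pooled oocytes, and in tissue, fewer cells of a type and less RNA per cell cannot be told apart.

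The library rapamycin 1 was low for 6 of the 10 genes, below all of the other 6 oocyte libraries. It had 67.2 CPM of Dnmt1 against 502 to 1375 CPM, and 27.9 CPM of Uhrf1 against 343 to 718 CPM, the widest gaps along with Tet2. Dnmt3l was at 9.11 CPM against 27.3 to 56.3, Tet2 at 0.536 (2 counts) against 3.56 to 4.21, Tet3 at 331 against 1011 to 1679, and Zfp57 at 221 against 566 to 892 CPM. Dnmt3a, Dnmt3b, Tet1 and Dppa3 stayed inside the range of the others, and Dppa3, at 3007 CPM, was near the young level. Among the 8 with a mean of at least 10 CPM (all but Tet1 and Tet2) 5 were lowest there, beside 39.2% of all genes of that level.

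**Figure D3:**
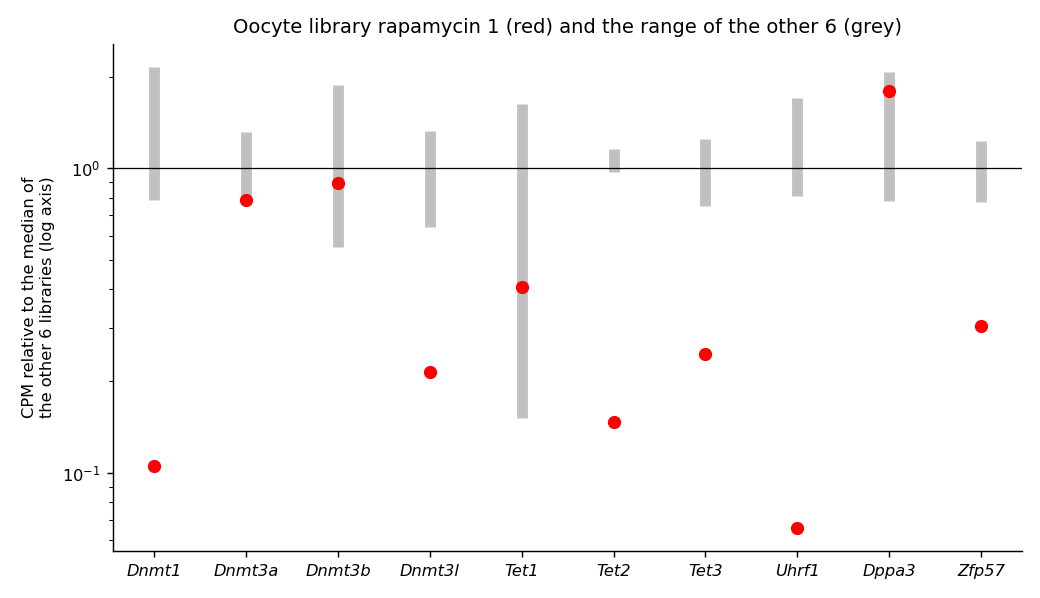
CPM of each gene in the oocyte library rapamycin 1 (red points) and range of the other 6 oocyte libraries (grey bars), both relative to the median of those 6 (log axis). Dnmt1, Uhrf1, Dnmt3l, Tet2, Tet3 and Zfp57 lie below the bars, and the other 4 lie within them.

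Rapamycin oocytes were compared with aged oocytes to ask what treatment of the aged female did. No gene of the genome passed in edgeR (0 of 10083, 0%; 603 at an unadjusted p under 0.05, against 11, or 0.109%, called by DESeq2), so none of the 10 did, and none of the 10 passed in any alternative. At an unadjusted p under 0.05 there was 1 of the 10, Tet1. Rapamycin and aged libraries did not overlap for 5 of the 10 genes, against 25.6% of all genes. Tet1 was higher in all 3 rapamycin libraries than in both aged ones, by 2.33 ± 0.74 on the log2 scale (edgeR adjusted p = 0.730), and Dppa3 was higher too, at 3007, 1685 and 1659 CPM against 1301 and 1654 CPM. For Dppa3 the gap between the groups was narrow, 1659 against 1654 CPM. Lower in all 3 were Dnmt1 (67.2, 604 and 675 CPM against 1375 and 794), Dnmt3l (9.11, 27.3 and 29.9 against 45.5 and 39.7) and Tet3 (331, 1294 and 1395 against 1679 and 1431). Without rapamycin 1 the Dnmt1 difference moved from -1.27 ± 0.78 to -0.73 ± 0.25 and the Dnmt3l difference from -0.94 ± 0.51 to -0.55 ± 0.28 (log2, SE), a smaller difference in each. The Tet3 difference moved from -0.63 ± 0.55 to -0.19 ± 0.18, and the Tet1 difference from 2.33 to 2.67 ± 0.60. In that fit 0.0587% of genes passed, and none of the 10.

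Against young oocytes, rapamycin oocytes again had no gene of the 10 past the threshold (43 of 10083 genes, 0.426%). By edgeR 1 of the 10 was under an unadjusted p of 0.05, beside 898 of all 10083 genes. DESeq2, with 2.41% of genes called, also called none of the 10. Dnmt3l was the exception to the overlap seen in the other 9, with all 3 rapamycin libraries below 56.3 and 46.9 CPM (33.4% of all genes did not overlap). Its log2 difference was -1.21 ± 0.51 (edgeR adjusted p = 0.550), and -0.84 ± 0.28 (edgeR adjusted p = 0.171) without rapamycin 1, where 2.97% of genes passed. Tet1 in rapamycin oocytes, at a mean of 4.98 ± 3.03 CPM (SD, n = 3), spanned from near the aged to within the young level. This comparison shares the young and the rapamycin libraries with the earlier ones.

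**Figure D4:**
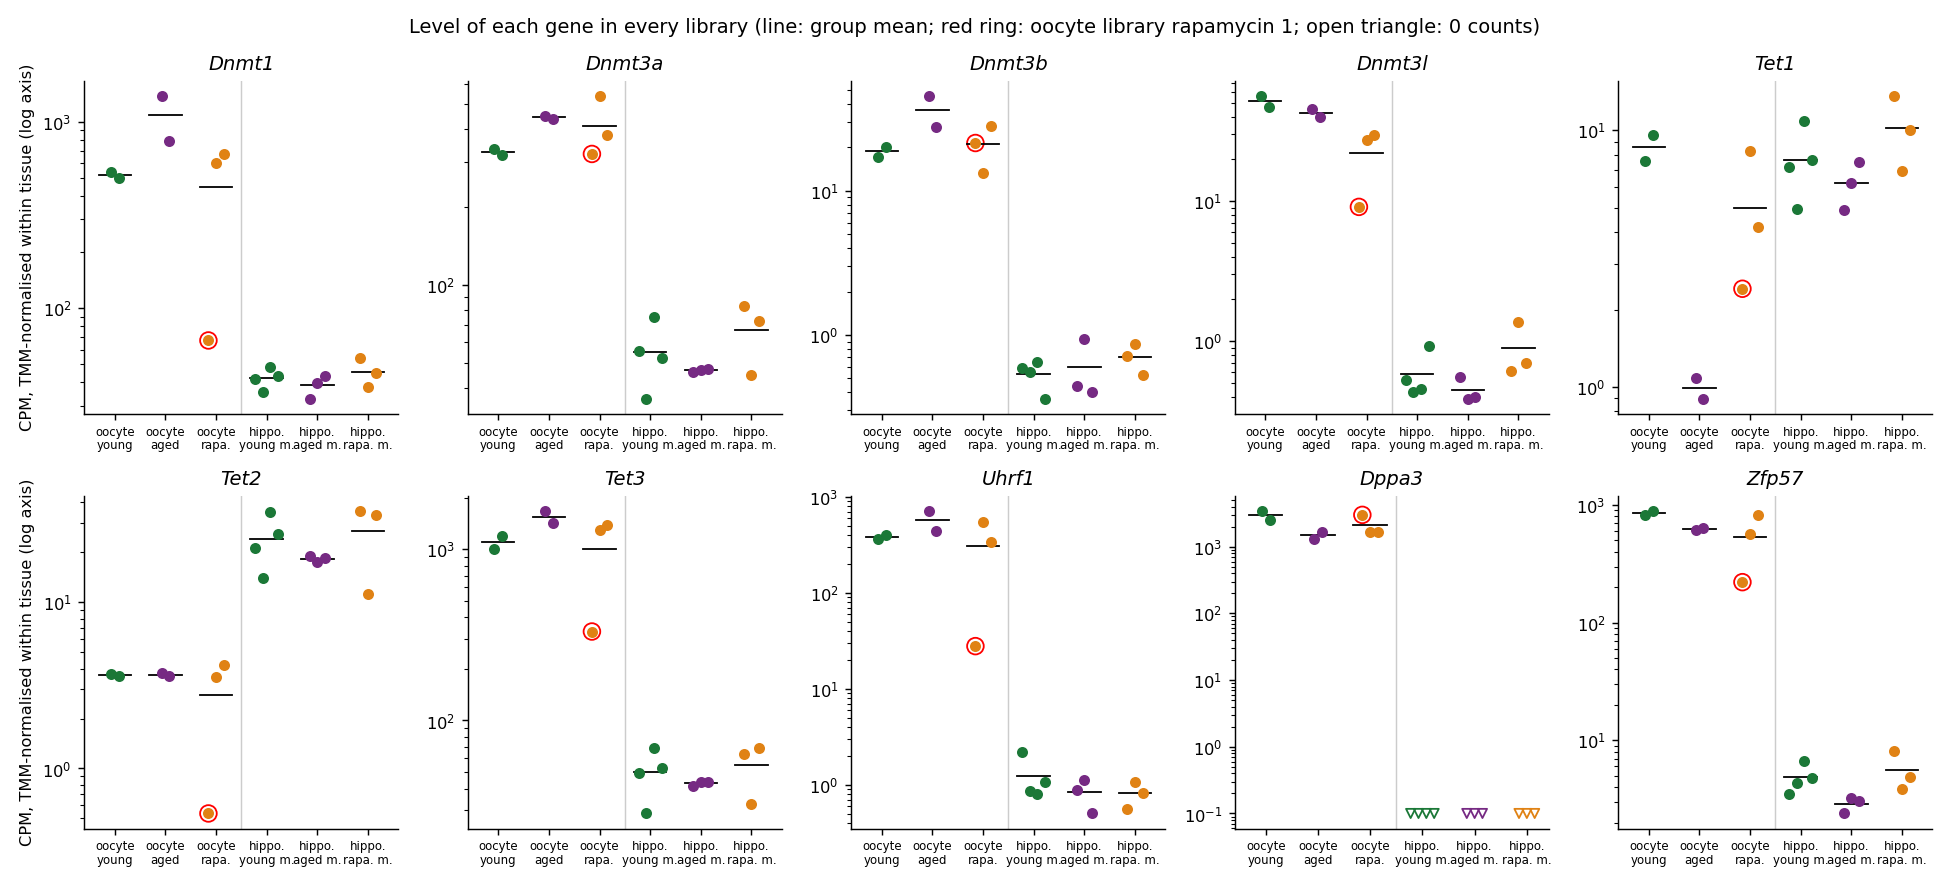
CPM of each gene (log axis, TMM-normalised within tissue) in all 17 libraries by group, with group means as lines, rapamycin 1 ringed in red and 0 counts as open triangles. In oocytes Tet1 and, by a narrow gap, Dppa3 are lowest in the aged libraries. Dnmt1, Dnmt3l, Uhrf1, Tet2, Tet3 and Zfp57 are lowest in rapamycin 1, while the hippocampus groups mostly overlap.

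In the hippocampus of offspring none of the 9 genes that could be tested passed by age of the mother (7 of 14877 genes passed, 0.0471%, edgeR). By edgeR 1 of the 9 was under an unadjusted p of 0.05, beside 522 of all 14877 genes. DESeq2, with 0.350% of genes called, called none of the 9. The values of 8 of 9 genes were below 0, with a median log2 difference of -0.31 against -0.01 over all genes. The median was -0.09 without young 3, and with the mean level of ribosomal protein genes, described below, as a covariate it was -0.01, with 5 of 9 below 0. Zfp57 was the only gene without overlap (5.45% of all genes did not overlap). It was at 3.52, 4.33, 6.73 and 4.80 CPM with young mothers and 2.39, 3.21 and 3.06 CPM with aged mothers, a log2 difference of -0.75 ± 0.31 (SE; edgeR adjusted p = 0.990). All 3 libraries of aged mothers were the lowest of the 10.

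Offspring of rapamycin-treated mothers had 8.16, 3.86 and 4.84 CPM of Zfp57, all above the 3 of aged mothers, a log2 difference of 0.96 ± 0.33 (SE; edgeR adjusted p = 0.796). No gene of the genome passed there (0 of 14877, 0%, edgeR, with 673 at an unadjusted p under 0.05, and 12, or 0.0807%, called by DESeq2). Of the 9 genes, 2 were under an unadjusted p of 0.05 by edgeR, Zfp57 and Tet1, and DESeq2 called none. The groups did not overlap for 2 of 9 genes, against 9.88% of all genes, and Dnmt3l was the other, at 0.608, 1.37 and 0.699 CPM against 0.556, 0.388 and 0.402 CPM. These rest on 7 to 22 counts a library. Tet1 was at 13.6, 6.97 and 10.0 CPM against 4.89, 6.21 and 7.53 CPM, which overlapped, with a log2 difference of 0.72 ± 0.32 (SE; edgeR adjusted p = 0.796) that was 0.29 ± 0.18 with the ribosomal covariate (edgeR adjusted p = 0.887, and 0.186 to 1.00 over the alternatives). Against young mothers, rapamycin-treated mothers gave no gene of the 9 past the threshold (8 of 14877 genes, 0.0538%). None of the 9 was under an unadjusted p of 0.05 by edgeR (540 of all genes were) or by DESeq2 (0.242% called). All 9 overlapped, while 5.03% of genes did not. With the replicate number as a block 4 of all genes passed here, and none of the 9.

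Dnmt1 and Uhrf1 overlapped between the 3 groups of mothers in hippocampus. Dnmt1 was at 42.3 ± 5.27 CPM (SD, n = 4) with young mothers, 38.7 ± 5.46 (n = 3) with aged mothers and 45.6 ± 8.16 (n = 3) with rapamycin-treated mothers. Uhrf1 was at 2.17, 0.866, 0.804 and 1.08 CPM with young mothers, 0.889, 1.11 and 0.502 with aged mothers and 0.558, 1.06 and 0.816 with rapamycin-treated mothers, from 10 to 37 counts. Dividing-cell and neurogenesis markers summed to 96.8 to 139 CPM over all hippocampus libraries.

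The levels of 6 of the 9 genes in hippocampus followed the mean level of 76 ribosomal protein genes, also within groups, and those of Dnmt3b, Dnmt3l and Uhrf1 did not. That mean ran from -0.90 to 0.66 (log2, centred on the 10 libraries). Over 10 libraries, Pearson's r between that level and the gene was -0.95 for Dnmt3a (rho -1.0), -0.93 for Dnmt1 (rho -0.92), -0.92 for Tet1 (rho -0.90), -0.92 for Tet2 (rho -0.94) and -0.92 for Tet3 (rho -0.95). Permutation p adjusted over the 9 genes tested was at most 0.000324 for these r and 0.00155 for these rho. For Dnmt3a the unadjusted permutation p of r and rho was 2.00e-05, the smallest that 100000 permutations give. Zfp57 had r = -0.73 (adjusted permutation p = 0.0274) and rho = -0.65 (adjusted permutation p = 0.0739). Dnmt3b, Dnmt3l and Uhrf1 had r of 0.07, 0.11 and 0.22 (adjusted permutation p of at least 0.727) and rho of -0.03, -0.14 and 0.33 (at least 0.446). Without the 2 libraries farthest from the median, young 2 and rapamycin 1, r was -0.86 for Dnmt1, -0.90 for Dnmt3a, -0.83 for Tet1, -0.91 for Tet2, -0.94 for Tet3 and -0.71 for Zfp57, and for Dnmt3b, Dnmt3l and Uhrf1 it was 0.31, 0.32 and 0.00. Within groups it was -0.91, -0.95, -0.94, -0.92, -0.92 and -0.71 for the first 6 genes in that order.

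This relation was shared with other genes: 14.3% of 14877 genes had r of -0.8 or below, and the median was -0.02. Of genes with a merged exon length of 7000 bases or more 36.7% did, against 8.45% from 2000 to below 7000 bases and 1.66% below 2000. The 5 genes with r under -0.9 are the 5 of at least 7377 bases (Dnmt1), and Tet1, Dnmt3a, Tet3 and Tet2 run from 15457 to 16870 bases. With the ribosomal level as a covariate, the aged against young value of Tet2 moved from -0.39 to 0.02 and the rapamycin against aged values of Tet2 and Tet3 from 0.55 to -0.14 and from 0.36 to -0.12 (log2). The median of the 9 genes in rapamycin against aged moved from 0.51 to 0.13, and Dnmt3a from 0.51 to 0.13. Zfp57 moved from -0.75 to -0.56 ± 0.25 and from 0.96 to 0.62 ± 0.27 in those 2 comparisons (log2, SE; edgeR adjusted p = 0.850 and 0.878). Summed oligodendrocyte markers also varied within groups, from 2588 to 9212 CPM, and their part was not tested.

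**Figure D5:**
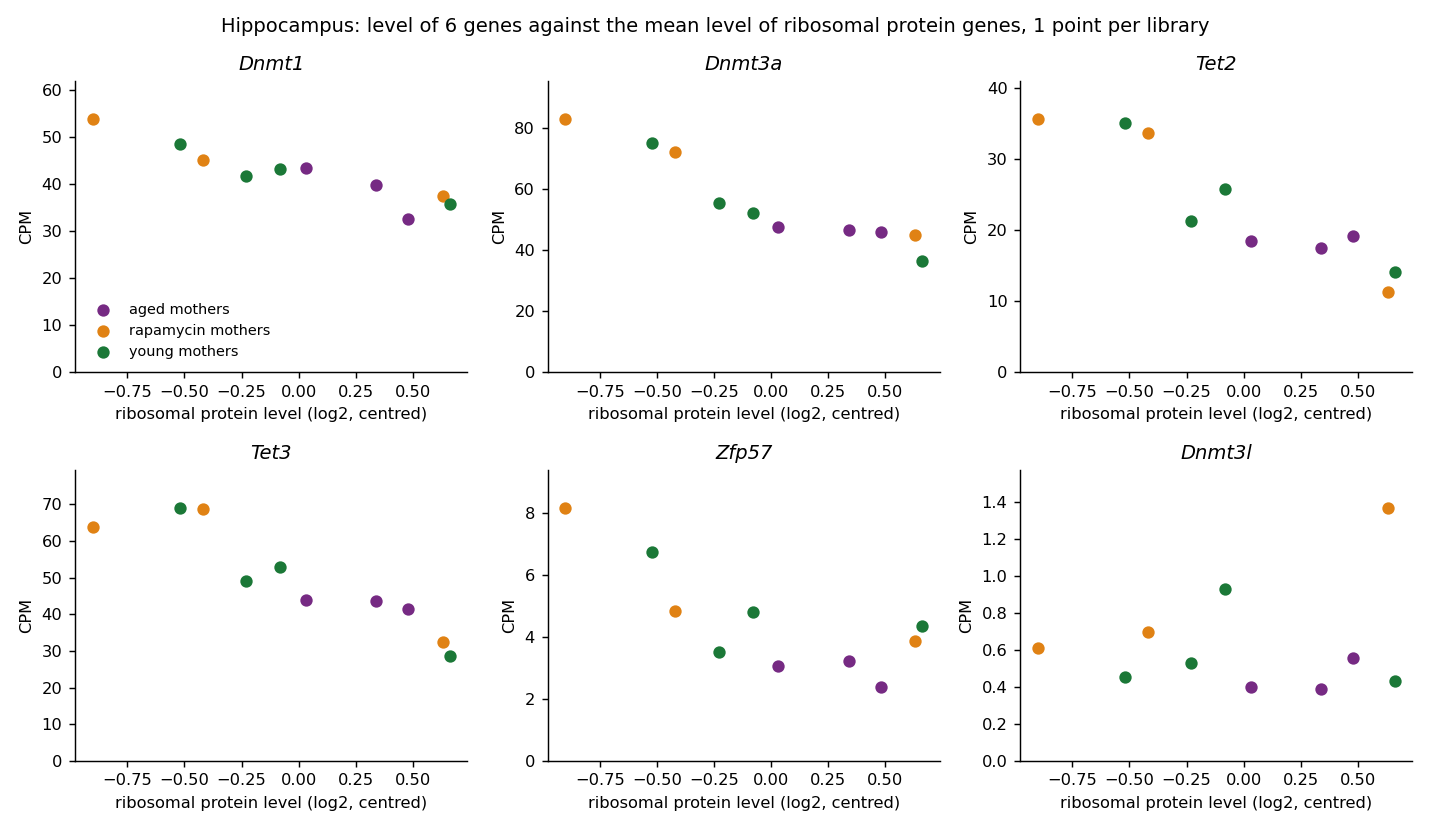
CPM of 6 genes (vertical axes, from 0) against the mean ribosomal protein level (log2, centred) in 10 hippocampus libraries, coloured by the mother's group. Dnmt1, Dnmt3a, Tet2 and Tet3 are lower where the ribosomal level is higher, Zfp57 less closely so, and Dnmt3l shows no such trend (r = 0.11).

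The effects of age in the egg and of the mother's age in offspring hippocampus were set against each other in the fit of all 17 libraries. Tet1 was the only 1 of 9 genes whose age difference differed between them (281 of 16672 genes passed, 1.69%), at -3.12 ± 0.75 (log2, oocyte minus hippocampus, SE; edgeR adjusted p = 0.0468). The median of all genes was -0.23 in this contrast, and -0.06 with RLE size factors, where Tet1 was at -2.88. The Tet1 call was lost with limma voom, with libraries thinned to the smallest total, and when leaving out any of the 4 young and aged oocyte libraries or 8 of the 10 hippocampus libraries. Its adjusted p over the alternatives ran from 0.00986 to 0.254.

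Partner genes of the same pathways were counted in 6 lists, 86 of whose 87 symbols were in the files. In aged against young oocytes no listed gene of 65 tested passed with all libraries (edgeR). Without rapamycin 1, 6 of 66 passed (9.09%), against 11.4% of all genes, so the calls named below are no more frequent than the background. The list of demethylation and base excision genes had 10 of 11 tested members above 0, with a median log2 difference of 0.79 against -0.01 over all genes, and the same count and median without rapamycin 1. Ung, the uracil glycosylase, was at 184 ± 61.3 CPM in aged (SD, n = 2) and 57.1 ± 1.13 in young oocytes, a log2 difference of 1.68 ± 0.42 (SE; edgeR adjusted p = 0.241, and 0.0139 without rapamycin 1). DESeq2 also called it (adjusted p = 0.0183). Ddb1, a subunit of a ubiquitin ligase that DCAF1 uses with TET enzymes, was at 660 ± 322 against 335 ± 82.0 CPM and did not pass. In rapamycin against aged oocytes, which share the aged libraries, 10 of 11 were below 0, with a median of -0.83 against 0.01 over all genes, and none passed. Without rapamycin 1 it was 9 of 11, with a median of -0.48. In that comparison 6 of 7 methyl-CpG readers were above 0, with a median of 1.24, and without rapamycin 1 it was 4 of 8, with a median of 0.18.

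Guides of de novo methylation in the oocyte were split 5 to 5, with a median log2 difference of -0.09. Setd2, which writes the histone mark that recruits DNMT3A, was at 41.9 ± 27.7 CPM in aged and 119 ± 16.5 in young oocytes (SD, n = 2 each), and passed without rapamycin 1, not with it (log2 -1.50 ± 0.42, SE; edgeR adjusted p = 0.0484). Kdm2b (0.80 ± 0.22, edgeR adjusted p = 0.0467) passed there as higher. Of the imprint protection partners, 6 of 14 were above 0, with a median of -0.30. Zfp445, a zinc finger protein that acts beside ZFP57 at imprints, was at 28.5 ± 7.28 CPM in aged and 10.1 ± 0.804 in young oocytes and passed as higher without rapamycin 1 (1.49 ± 0.37, edgeR adjusted p = 0.0336), opposite to the direction of Zfp57. Rif1 was at 231 ± 55.2 against 425 ± 36.7 CPM and did not pass.

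Methyl-CpG readers were split 3 to 4 (median -0.09) and, without rapamycin 1, 4 to 4 (0.05); Mbd2 was at 2.51 ± 0.889 CPM in aged and 8.44 ± 0.866 in young oocytes (SD, n = 2 each), past the threshold without rapamycin 1, not with it (-1.73 ± 0.49, edgeR adjusted p = 0.0498). Maintenance partners were split 6 to 5 (median 0.00), and their 2 members of smallest p, Lig1 and Pcna, did not pass. Genes that supply S-adenosylmethionine, the methyl donor, had 8 of 12 above 0 and a median of 0.56. Shmt2, a serine hydroxymethyltransferase, was at 183 ± 33.8 CPM in aged and 94.4 ± 12.1 in young oocytes and passed without rapamycin 1 (0.95 ± 0.25, edgeR adjusted p = 0.0412). Its relative Shmt1 differed more, at 45.9 ± 40.5 against 4.14 ± 0.602 CPM, with aged libraries at 17.3 and 74.5 CPM, and did not pass.

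In hippocampus by age of the mother, list medians ran from -0.11 to 0.09, and no listed gene passed in edgeR. Gadd45b, a stress-induced gene tied to active demethylation in neurons, was at 25.7 ± 2.01 CPM (SD, n = 3) with aged mothers and 12.6 ± 4.33 (n = 4) with young mothers, without overlap (log2 1.03 ± 0.23, SE; edgeR adjusted p = 0.437). DESeq2 called it (adjusted p = 0.0146), beside 0.350% of all genes called. Gadd45g was at 27.2 ± 1.85 against 15 ± 4.35 CPM, also without overlap (edgeR adjusted p = 0.600). In this comparison 5.45% of all genes did not overlap, and both genes were named for the smallest p in their list. With rapamycin-treated mothers Gadd45b was at 19.3 ± 0.738 and Gadd45g at 19.4 ± 3.43 CPM (SD, n = 3 each), between the other 2 groups in mean.

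The genes whose profile was most like Tet1 over the 7 oocyte libraries, by Pearson's r of log2 CPM among genes tested, were Armc1 (r = 0.993), Cdkn1b (0.981) and Sun2 (0.981). Cdkn1b, an inhibitor of cyclin-dependent kinases, was at 2.92 to 3.77 CPM in aged and 11.4 to 13.3 CPM in young oocytes. Those most like Dppa3 were Gnrh1 (0.983), Tmf1 (0.967) and Rchy1 (0.967), and Tmf1 was at 127 to 129 CPM in aged and 229 to 288 CPM in young oocytes. Over the 10 hippocampus libraries Zfp57 was most like Cdk14 (0.947), Fbln2 (0.932) and Chek1 (0.921), and Uhrf1 most like Adm (0.898), E2f4 (0.852) and Tmem8c (0.849). The libraries share depth and scaling, so these r are descriptions. They are the highest among all genes tested, over few libraries, for genes chosen by their age difference. High r and a shared split by age follow in part from that choice. Sun2 was at 0 CPM in the aged oocyte libraries, and Adm, Chek1 and Tmem8c were at most at 2.03 CPM in hippocampus.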

How the data were processed

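The authors deposited, for each library, raw read counts per gene. Per the submitters' processing notes the tools were STAR and HTSeq on mm10, which is the GRCm38 assembly; versions, annotation and strand setting: not given in the sources used here. Rows that name no gene were left out. As a share of all counts with those rows included, reads outside genes came to 6.09% to 9.32% in oocytes and to 11.6% to 16.0% in hippocampus. Each tissue was fitted alone over its 3 groups with edgeR 4.0.16 in R 4.3.3 (filterByExpr, TMM, quasi-likelihood test, Benjamini-Hochberg adjustment over all genes tested, threshold 0.05), which left 10083 genes in oocytes and 14877 in hippocampus. A joint fit of all 17 libraries (16672 genes) gave the tissue comparison and the difference of the age effects. Dppa3, at 0 in hippocampus, was not tested in that tissue or in that difference. The code was tested on simulated data. In aged against young oocytes 0.0% of simulated 2-fold and 4-fold changes and 34.0% of 8-fold changes passed. For 4-fold changes it was 7.32% in each rapamycin comparison of oocytes. In hippocampus by age of the mother 36.8% of 2-fold and 91.9% of 4-fold changes passed. A gene that did not pass in oocytes can therefore still differ by several fold.

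Alternatives were RLE size factors, no filter, a filter of 10 CPM, robust dispersions, DESeq2 1.42.0, only the 2 groups, a replicate block, thinning, limma 3.58.1 voom, and leaving out each library. The ribosomal covariate, its relation to the genes and the length classes were chosen after seeing the data. The genes and lists were chosen with earlier results of these data known. Log2 fold changes are mainly printed for genes that differed by at least 1 SE. Named partner genes are up to 2 per list with the smallest unadjusted p in aged against young of each tissue, plus any called, and likeness is given for the 2 genes of smallest p per tissue. Correlations use log2 CPM with a prior count of 2. Per-length levels cover the 23571 of 24491 symbols with a length in GENCODE M21, which may differ from the authors' annotation. Floors cover counting error only, since reads are not independent molecules. Tests on single values used scipy 1.17.1. Replicate numbers are from the labels, which do not say what they mark. In hippocampus of young against rapamycin-treated mothers all 3 same-numbered pairs of libraries deviated together (r = 0.18, 0.64 and 0.32), so the replicate block is given beside that comparison, although rapamycin 1 correlated more with young 3 (0.52).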

Additional observations from a re-analysis of the deposited data

Results flagged for a closer look

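Tet1 was singled out because its aged-against-young difference in oocytes differed from that in offspring hippocampus, by -3.12 on the log2 scale (edgeR adjusted p = 0.0468), with counts of 4 in each aged oocyte library. Mbd2, a methyl-CpG reader, differed in the same way by -2.14, from 8.44 to 2.51 CPM in oocytes and from 38.1 to 41.6 CPM in hippocampus (means of young and aged groups). Dnmt3l was listed because every rapamycin library lay below every aged library in oocytes (log2 difference -0.94) and above every one of aged mothers in hippocampus (0.97). That difference between the tissues was not tested.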

How the results depend on the processing

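Of 40 log2 fold changes of single genes, 33 kept their direction and their side of the threshold in all alternatives run. Only changes of at least 1 SE were counted, and Dppa3 was left out of the 40. In aged against young oocytes Dppa3 passed without rapamycin 1 and not with it, as described above. With the ribosomal covariate in hippocampus the sign turned for Tet2 by age of the mother (0.02), and for Tet2 (-0.14) and Tet3 (-0.12) in rapamycin against aged; the cause was not tested. In aged against young oocytes the 10 genes gave 1 call with DESeq2, 3 with only the 2 groups and 0 to 3 on leaving out a library, and in the difference of age effects 0 with voom, 0 with thinning and 0 to 1. Over all genes, aged against young oocytes gave 167 calls with no filter, 288 with DESeq2, 1177 with only the 2 groups and 0 to 1168 on leaving out a library (1168 without rapamycin 1). Rapamycin against aged oocytes gave 11 with no filter, 11 with DESeq2 and 0 to 6, and rapamycin against young oocytes 179, 243, 14 with only the 2 groups and 0 to 304. In hippocampus, aged against young mothers gave 52 with DESeq2, 2 with only the 2 groups, 11 with the covariate and 0 to 15, rapamycin against aged 12, 2 and 0 to 1, and rapamycin against young 36, 5, 16 and 2 to 10. The difference of age effects gave 111 with voom and 114 to 1347 on leaving out a library. An arm left with 1 library was assumed to vary like the others.

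Replicate numbers did not pair the oocyte libraries, which correlated at -0.09 to 0.00 by number in their deviations from group means, nor those of aged mothers with young (-0.18, 0.21 and 0.15) or rapamycin-treated mothers (-0.09, 0.19 and -0.05), and not every library correlated best with its own number. With the replicate block, aged against young oocytes gave 1 call, rapamycin against young oocytes 0 and rapamycin against young mothers 4, and none of the 10 genes was called in either tissue. Low counts limit Tet1 and Tet2 in oocytes and Dnmt3b, Dnmt3l and Uhrf1 in hippocampus.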
